A study of Homo sapiens with 6 samples.

Results

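The clustered histone genes described here were taken from the array annotation by their symbols: H1- followed by a number for linker histones, and H2AC, H2BC, H3C or H4C followed by a number for core histones. Probe sets with exactly 1 such symbol numbered 110 of 49293 non-control probe sets on the array and stood for 64 genes. By class there were 12 probe sets for H1, 26 for H2A, 40 for H2B, 16 for H3 and 16 for H4. Of these, 88 belonged to the chromosome 6 cluster, 12 to the larger and 3 to the small cluster of chromosome 1, and 7 to genes outside the clusters (H1-7, H1-8, H1-10 and H4C16), so the clustered origin holds for most members and not for all.

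Core histones H2A, H2B, H3 and H4 form the octamer around which DNA is wound, and linker histone H1 binds the DNA between nucleosomes. Many copies of their genes lie together in clusters on chromosomes 6 and 1 and are transcribed mainly in S phase, when new DNA is packaged. Most of their mRNAs end in a stem-loop in place of a poly(A) tail, though some genes also make polyadenylated transcripts, which are known best from cells that have left the cell cycle.

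HMEC-1 cells, an immortalised human line of microvascular endothelial origin, were kept in serum-free medium and their RNA was put on arrays. In 3 samples the cells had received EPC-Exos at 1e+11 particles per mL for 24 hours, and in 3 they had received the same volume of PBS. EPC-Exos, an abbreviation the labels do not spell out, stands by common usage for exosomes of endothelial progenitor cells. Separate cultures are not stated for the replicates, and the spread behind each p-value may therefore be that of technical repeats. A fall in signal can mean fewer cells that make a transcript or less of it per cell, and RNA of whole cultures cannot tell these apart.

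Array medians lay between 6.25 and 6.34 on the log2 scale, and arrays of the same group correlated at 0.997 over non-control probe sets, against 0.988 to 0.989 between groups. The ratio of 3′ to 5′ signal, a guide to RNA integrity, differed between EPC-Exos and PBS by 0.011 log2 for ACTB and 0.0092 log2 for GAPDH. Of 8 endothelial markers, ENG and TIE1 were higher after EPC-Exos, while TEK and CDH5 had both group means no higher than the brightest Tag control, a probe set made to match no human transcript. VWF and KDR were not called, and PECAM1 and CD34 missed the filter. The summed linear signal of the endothelial list ran from 1467 to 1509 with EPC-Exos and from 889 to 1039 with PBS. That of 5 fibroblast markers ran from 1373 to 1528 with EPC-Exos and from 2313 to 2602 with PBS, with DCN and COL1A1 lower and COL1A2 and PDGFRA at or below the Tag level in both groups. LUM, the other fibroblast marker, missed the filter and averaged 3.67 with EPC-Exos and 5.97 with PBS (limma adjusted p = 2.41e-11 without the filter). For 4 epithelial markers the sums were 4833 to 4981 with EPC-Exos and 3187 to 3421 with PBS, KRT7 being higher and CDH1 and KRT19 at or below the Tag level. For 5 leukocyte markers they were 433 to 473 with EPC-Exos and 292 to 309 with PBS, CD68 being higher and PTPRC, CD14 and MS4A1 at or below the Tag level. Each of these sums came mainly from the brightest gene of its list, ENG, COL1A1, KRT7 or CD68, and does not describe the list as a whole. The part of these markers in the histone results was not tested.

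Among histone genes with a measurable signal, falls outnumbered rises after EPC-Exos. H2BC21 fell 4.30-fold, H2AC11 2.18-fold, H2BC12 1.84-fold, and all 3 probe sets of H2BC5 fell 1.76-fold to 2.02-fold. H2AC6 and the linker histone H1-2 fell 1.75-fold each, and H3C8 fell 1.37-fold and 1.77-fold in its 2 tested probe sets. The tested probe sets of H2AC6, H1-2 and H3C8 were all of the _s_at or _x_at kind. Their probes can match related transcripts, so these falls may not belong to the named gene alone. H1-4 was 1.33-fold higher, and H2BC9 was higher in 2 of its 3 tested probe sets, by 1.315-fold and 1.23-fold. The smaller of these H2BC9 rises was not called without the signal filter. The tested probe sets with a single H4 symbol differed by no more than 1.12-fold.

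Tests were run on probe sets with a mean log2 signal over the 6 arrays of at least 5.45, the 40th percentile of the non-control ones. That filter kept 27 members of 18 genes, or 24.5% of the members against 60% of all non-control probe sets. In 3 of the 27, an _x_at probe set each of H3C8 and H2BC9 and the H3C4 probe set, 1 group mean lay below the filter, so they passed through the brighter group. In limma with Benjamini-Hochberg adjustment over all 29576 probe sets tested, 13 of these 27 were called lower (adjusted p under 0.05), 3 higher and 11 neither. The tested members were thus called lower in 48.1% and higher in 11.1%, against 23.6% and 22.1% of all tested probe sets, of which 45.7% were called in either direction. The count of 3 higher became 1 without EPC-Exos replicate 2 or without PBS replicate 2, while the 13 lower stayed at 13 whichever array was left out. The members' median log2 change was -0.17, and that of all tested probe sets was 0.0031. By gene, 9 of the 18 had at least 1 probe set called lower, 2 had at least 1 called higher, 7 had none, and in 0 genes were probe sets called in opposite directions. Over 11715 genes, each read only by its probe set of highest mean signal, 26.7% were called lower and 21.2% higher. That rule is stricter than at least 1 probe set called. The study's own threshold asks for an unadjusted p under 0.05 and a 1.5-fold change, and 9 tested members met it downward and 0 upward, where 5.25% and 4.05% of all tested probe sets met it.

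**Figure D1:**
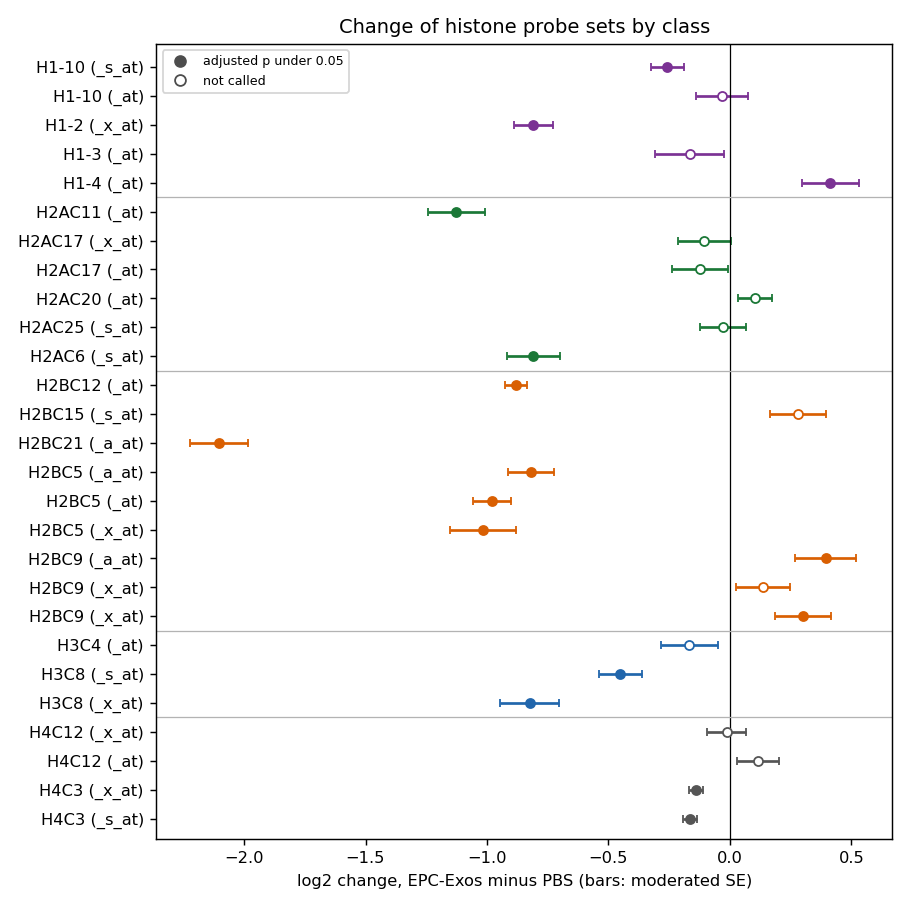
Log2 change (EPC-Exos minus PBS, x axis) of the 27 histone probe sets above the signal filter, with limma's moderated SE as bars and the probe set type in brackets. H2BC21 stands farthest left at -2.10, H1-4 farthest right at 0.41, and filled points mark the 16 probe sets called at an adjusted p under 0.05.

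The promoters of 5 H2A and H2B genes that fell are shown because these classes share promoter elements and, in part, one promoter stretch between neighbours. Each is the 200 bases before the gene's first listed start, from RefSeq on GRCh38.p14 and read 5′ to 3′ on the gene's strand. Capitals mark matches, on either strand, to the octamer ATTTGCAT, the site of OCT factors, to CCAAT and to TATAAA.
H2BC21 (chr1:149886683-149886882, minus strand): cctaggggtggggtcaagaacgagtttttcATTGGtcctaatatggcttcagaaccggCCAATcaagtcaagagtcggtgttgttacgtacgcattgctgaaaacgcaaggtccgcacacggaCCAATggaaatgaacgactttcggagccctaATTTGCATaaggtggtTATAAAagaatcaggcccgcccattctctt
H2BC12 (chr6:27146859-27147058, minus strand): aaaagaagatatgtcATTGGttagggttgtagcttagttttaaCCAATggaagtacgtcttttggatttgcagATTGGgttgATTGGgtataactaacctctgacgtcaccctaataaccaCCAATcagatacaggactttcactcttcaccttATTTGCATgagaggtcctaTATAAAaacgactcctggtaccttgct
H2BC5 (chr6:26157921-26158120, plus strand): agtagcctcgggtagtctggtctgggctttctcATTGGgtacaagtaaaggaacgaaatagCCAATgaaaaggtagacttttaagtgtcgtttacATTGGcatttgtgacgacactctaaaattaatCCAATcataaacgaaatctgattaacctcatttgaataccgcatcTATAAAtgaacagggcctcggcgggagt
H2AC11 (chr6:27132843-27133042, plus strand): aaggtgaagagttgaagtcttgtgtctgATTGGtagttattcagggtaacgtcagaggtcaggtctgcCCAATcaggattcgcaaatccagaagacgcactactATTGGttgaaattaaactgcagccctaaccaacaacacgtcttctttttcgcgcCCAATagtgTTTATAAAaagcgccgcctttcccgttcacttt
H2AC6 (chr6:26123972-26124171, plus strand): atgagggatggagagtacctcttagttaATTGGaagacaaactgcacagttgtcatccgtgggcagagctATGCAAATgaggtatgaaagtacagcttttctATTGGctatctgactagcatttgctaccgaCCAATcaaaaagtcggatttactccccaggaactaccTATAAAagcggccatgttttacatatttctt

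Each of these stretches held 1 or more TATAAA matches and 3 to 5 CCAAT matches, and H2BC21, H2BC12 and H2AC6 also held an octamer. H2AC11 had 1 octamer in the 250 bases before its start, but not within the 200 printed. Over the 250 bases before the first listed start, 59 of the 64 member genes were matched in the RefSeq promoter table. The octamer stood in 14 of 18 H2B and 11 of 14 H2A promoters but in 1 of 8 H3, 0 of 9 H1 and 0 of 10 H4 promoters, against 1.66% of all 27305 promoters. CCAAT stood in all 14 H2A, 18 H2B and 8 H3 promoters, in 8 of 9 for H1 and in 3 of 10 for H4, against 33% of all. TATAAA stood in 62.7% of member promoters and 11.1% of all, and AAACACA, the core of the H1 box, in 7 of 9 H1 promoters, in 0 of the other member promoters and in 4.95% of all. Both strands were searched, and a TATAAA match can overlap its own reverse complement, as in H2AC11. Grouped by the call of each gene's probe set of highest mean signal, the octamer stood in 4 of 8 promoters of genes called lower, 1 of 2 called higher and 3 of 7 not called. These matches describe the letters and show no binding.

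Of the 9 tested H2B probe sets, from 5 genes, 5 were called lower, 2 higher and 2 neither, with a median log2 change of -0.82. Of the 5 lower, 3 belonged to H2BC5 and the others to H2BC21 and H2BC12, while both higher ones belonged to H2BC9. That median thus leans on H2BC5. Over all 40 H2B members, most of them near background, it was -0.0005. The H2BC21 probe set had log2 signals of 6.071, 6.037 and 5.553 with EPC-Exos, against 7.930, 7.996 and 8.049 with PBS. The groups were far apart, with EPC-Exos replicate 3 the lowest array. The log2 change was -2.10 ± 0.12 (SE, n = 3 each, limma adjusted p = 3.85e-10). This gene of the larger chromosome 1 cluster encodes an H2B and is known to make a polyadenylated transcript as well as the stem-loop form, and its RefSeq span is 2224 bases. The other 2 H2BC21 probe sets averaged 3.95 with EPC-Exos and 3.90 with PBS, within the range of the Tag controls, and differed from each other by at most 0.0035 log2 on any array, so they give no separate measurement.

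H2BC12, an H2B gene of the chromosome 6 cluster with a RefSeq span of 8566 bases, had log2 signals of 10.63, 10.62 and 10.56 with EPC-Exos, against 11.44, 11.49 and 11.52 with PBS. The arrays of each group lay close together and far from the other group, and the change was -0.88 ± 0.046 (SE, limma adjusted p = 1.28e-10). A further H2BC12 probe set lay near background, with means of 4.52 with EPC-Exos and 4.57 with PBS.

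H2BC5, an H2B gene of the chromosome 6 cluster with a span of 13229 bases, was lower in all 3 of its probe sets. The _at probe set had 7.17, 7.15 and 7.29 with EPC-Exos, against 8.11, 8.20 and 8.23 with PBS, a change of -0.98 ± 0.080. The _a_at probe set had 7.45, 7.58 and 7.66 with EPC-Exos and 8.22, 8.35 and 8.58 with PBS (-0.82 ± 0.094), and the _x_at probe set 5.34, 5.78 and 5.83 with EPC-Exos and 6.58, 6.50 and 6.91 with PBS (-1.02 ± 0.14). In all 3 the groups did not overlap, and the limma adjusted p lay between 3.36e-08 and 1.16e-05.

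H2BC9 went the other way. Its _a_at probe set had 6.02, 6.22 and 6.30 with EPC-Exos, against 5.76, 5.57 and 6.02 with PBS, and the groups overlapped slightly at 6.02. The change was 0.40 ± 0.13 (SE, limma adjusted p = 0.0163). An _x_at probe set of the gene was also called higher, by 0.30 ± 0.12 (limma adjusted p = 0.043), but it passed the filter only through the EPC-Exos group and was not called without the filter (limma adjusted p = 0.0588). The second _x_at probe set had 5.72 ± 0.091 with EPC-Exos and 5.58 ± 0.043 with PBS (SD, n = 3) without a call (limma adjusted p = 0.336). Both calls were lost when EPC-Exos replicate 2 or 3 or PBS replicate 2 was left out (limma adjusted p = 0.0607 to 0.0844 for the _a_at and 0.0652 to 0.167 for the _x_at probe set), and that of the _x_at probe set also without PBS replicate 1. H2BC15, an H2B gene for which an _s_at probe set was tested, had 5.92, 6.14 and 5.81 with EPC-Exos, against 5.67, 5.61 and 5.74 with PBS. The groups did not overlap, but the change of 0.28 ± 0.11 missed the threshold (limma adjusted p = 0.0544).

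**Figure D2:**
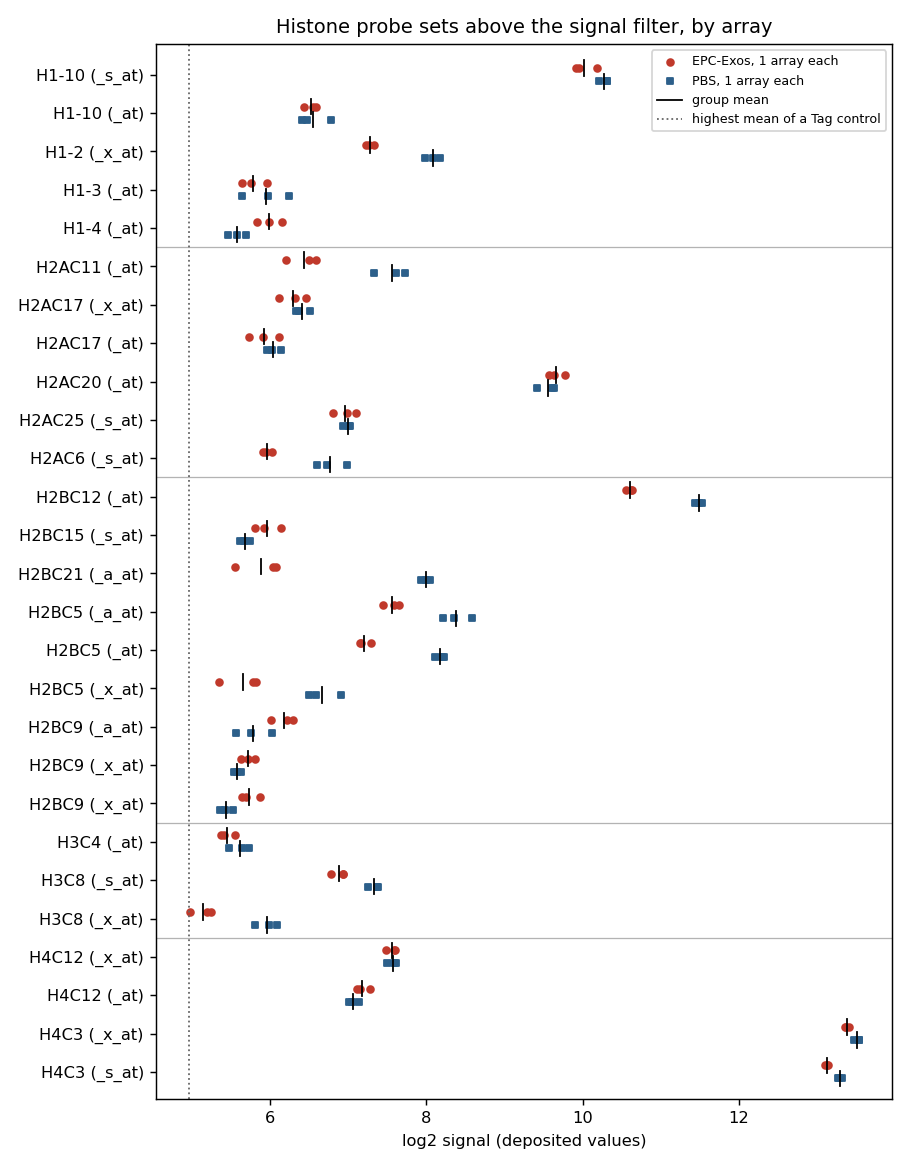
Deposited log2 signal (x axis) on each array for the 27 histone probe sets above the filter, with circles for EPC-Exos, squares for PBS and bars for group means. The groups are fully apart for H2BC21, H2BC12 and H2BC5, while for H4C12, H2AC25 and H2AC17 their points lie over each other.

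Among 6 tested H2A probe sets 2 were called lower, 0 higher and 4 neither, and the median log2 change was -0.11. H2AC11, from the chromosome 6 cluster, had log2 signals of 6.50, 6.20 and 6.59 with EPC-Exos, against 7.73, 7.61 and 7.33 with PBS. All EPC-Exos arrays lay below all PBS arrays, and the change was -1.13 ± 0.12 (SE, limma adjusted p = 5.74e-07). The H2AC6 probe set, of the _s_at kind, had 5.95, 5.91 and 6.03 with EPC-Exos, against 6.60, 6.73 and 6.98 with PBS. The groups again did not overlap (-0.81 ± 0.11, limma adjusted p = 1.22e-05). The other tested H2A genes overlapped between groups: H2AC20 averaged 9.66 ± 0.10 with EPC-Exos and 9.55 ± 0.12 with PBS (SD, n = 3), and H2AC25 averaged 6.97 ± 0.15 with EPC-Exos and 6.99 ± 0.049 with PBS. Both H2AC17 probe sets changed by little, -0.11 ± 0.11 and -0.12 ± 0.12 (SE), without a call.

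Linker histones were split. H1-2, a linker histone found in most cell types, was read by an _x_at probe set. Its log2 signals were 7.27, 7.33 and 7.23 with EPC-Exos, against 7.98, 8.09 and 8.18 with PBS. The groups were well apart (-0.81 ± 0.081 SE, limma adjusted p = 4.05e-07). H1-4 had 6.16, 5.83 and 5.98 with EPC-Exos, against 5.69, 5.57 and 5.46 with PBS, so all EPC-Exos arrays were higher. Its change of 0.41 ± 0.12 (limma adjusted p = 0.00843) lost its call without EPC-Exos replicate 1 (limma adjusted p = 0.0563). H1-3 had 5.79 ± 0.17 with EPC-Exos and 5.95 ± 0.30 with PBS (SD, n = 3) and was not called. H1-10, a variant encoded outside the clusters, fell by 0.26 on the log2 scale in its _s_at probe set (9.95, 10.18 and 9.92 with EPC-Exos, against 10.21, 10.31 and 10.31 with PBS, limma adjusted p = 0.00468). The second H1-10 probe set averaged 6.52 ± 0.079 with EPC-Exos and 6.55 ± 0.19 with PBS and was not called (limma adjusted p = 0.837).

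The tested H3 probe sets came from H3C8 and H3C4. H3C8 fell in both: its _s_at probe set had 6.93, 6.93 and 6.79 with EPC-Exos, against 7.37, 7.25 and 7.39 with PBS (-0.45 ± 0.088 SE, limma adjusted p = 0.000448), and its _x_at probe set had 4.98, 5.20 and 5.25 with EPC-Exos, against 5.99, 6.09 and 5.81 with PBS (-0.82 ± 0.12, limma adjusted p = 3.23e-05). The _x_at probe set passed the filter only through the PBS group, and limma without the filter gave an adjusted p of 3.21e-05. The arrays of the groups did not overlap in either, and the EPC-Exos values of the _x_at probe set lay close to the highest Tag control, at 4.97. H3C4 averaged 5.45 ± 0.095 with EPC-Exos and 5.61 ± 0.13 with PBS (SD, n = 3) and was not called.

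The tested H4 probe sets came from H4C3 and H4C12. H4C3 was called lower in both its probe sets, with 13.36, 13.37 and 13.40 with EPC-Exos, against 13.54, 13.48 and 13.54 with PBS in the _x_at probe set (-0.14 ± 0.029 SE, limma adjusted p = 0.000799). In the _s_at probe set the change was -0.17 ± 0.030 (limma adjusted p = 0.000222). These signals lay near the top of the arrays' range, which ended at 14.52. Both H4C12 probe sets overlapped between groups, with changes of -0.013 ± 0.080 and 0.12 ± 0.087. The median over the 4 tested H4 probe sets was -0.076.

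Groups did not overlap in 17 of the 27 tested members, or 63%, where 53.4% of all tested probe sets had groups that did not overlap.

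Some histone genes are neighbours that start in opposite directions from a short shared stretch of DNA, mostly an H2A beside an H2B. Among the histone genes, RefSeq starts gave 12 such pairs at most 500 bases apart, and both genes of a pair were tested in 1 of them. That pair was H2BC21 and H2AC20, with 236 bases between their starts, so the H2BC21 stretch printed above covers, on the other strand, part of the H2AC20 promoter without the bases next to the H2AC20 start. H2BC21 fell by 2.10 on the log2 scale, while H2AC20 changed by 0.10 ± 0.071 (SE, limma adjusted p = 0.246). Within arrays, H2BC21 minus H2AC20 was -3.77 ± 0.29 with EPC-Exos and -1.56 ± 0.13 with PBS (SD, n = 3), a difference of -2.21 log2. The exact two-sided permutation test over the 6 arrays gave p = 0.1, the smallest that 3 against 3 can give. With H2BC21 so far apart between groups and H2AC20 little changed, that outcome followed from the values above and adds nothing to them.

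**Figure D3:**
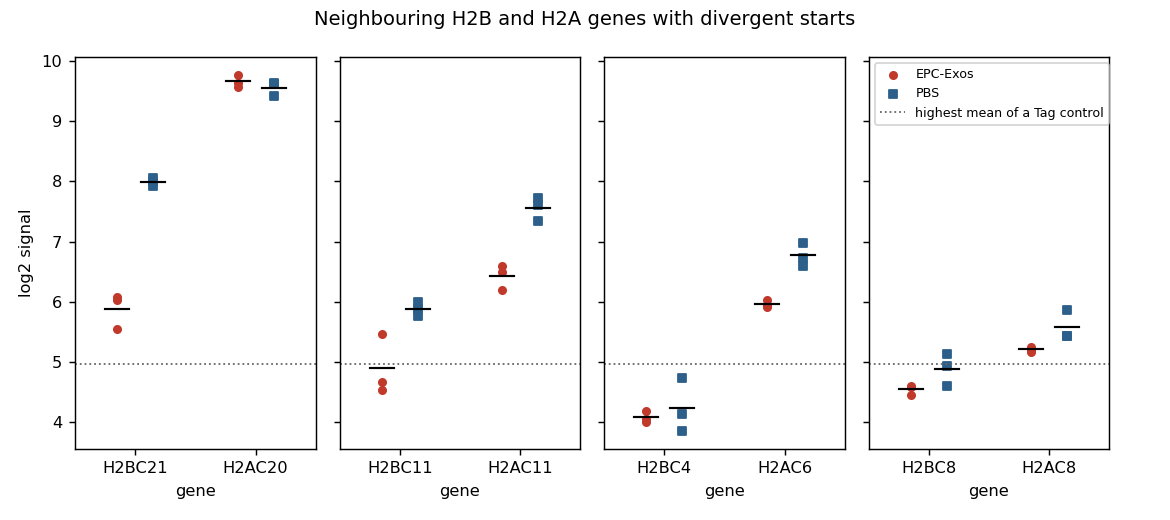
Log2 signal (y axis) on each array for 4 pairs of neighbouring H2B and H2A genes with divergent starts, by the probe set of highest mean signal per gene, with bars for group means and a dotted line at the highest Tag control. H2BC21 is far lower with EPC-Exos while H2AC20 overlaps between groups, and the plotted H2BC11 and H2AC11 probe sets both lie lower with EPC-Exos.

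In 6 further pairs 1 gene was tested. H2AC11 fell, and its neighbour H2BC11, which missed the filter, had 4.67, 4.53 and 5.47 with EPC-Exos, against 5.76, 5.87 and 5.99 with PBS (change -0.98, limma adjusted p = 0.000322 in the fit without the filter). The EPC-Exos mean of that H2BC11 probe set, 4.89, lay below the highest Tag control, and the other 2 H2BC11 probe sets differed by -0.014 and -0.13 log2 without a call. Beside H2AC6, which fell, H2BC4 averaged 4.08 with EPC-Exos and 4.24 with PBS, below the highest Tag control in both groups. H2AC25, H3C4, H2BC15 and H2AC17 were the tested genes of the other such pairs, and none was called. Their neighbours H2BC26, H2BC7, H2AC15 and H2BC17 changed by -0.093 to 0.18 log2, at or below the Tag level in both groups. H2AC8 and H2BC8, neither of which was tested, differed by -0.37 and -0.34 log2. H2BC8 lay below the highest Tag control in both groups and was not called without the filter (limma adjusted p = 0.0702). In the remaining untested pairs, changes ran from -0.14 to 0.20 log2.

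Of the 83 members below the filter, mean log2 signals ran from 3.20 to 5.39. Over all 110 members, 74 (67.3%) had both group means at or below the highest Tag control of 4.97, against 32.8% of all non-control probe sets, so the signal of most members was not above that of probes without a target. This held for 29 of 40 H2B, 18 of 26 H2A, 12 of 16 H3, 11 of 16 H4 and 4 of 12 H1 probe sets. RNA was labelled with a 3′ IVT kit, which primes from poly(A) tails, and its part in these low signals was not tested.

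In limma without the filter, 7 of the 83 were called, 5 lower and 2 higher, where 7.41% of all probe sets below the filter and 28.4% of all 49293 were called. The lower ones were H2BC11, H2AC8 in its _at (-0.37, limma adjusted p = 0.0402) and _s_at probe sets (-0.45, limma adjusted p = 0.0145), a further H2AC11 probe set (-0.56, limma adjusted p = 0.0394) and an _at probe set of H3C8 (-0.77, limma adjusted p = 0.00406). The last 2 belong to genes that fell in their tested probe sets too. The higher ones were H2BC6, with 5.25, 5.15 and 5.02 with EPC-Exos against 4.77, 4.73 and 4.66 with PBS (limma adjusted p = 0.00904), and H2BC18, with 4.92, 5.12 and 4.55 with EPC-Exos against 4.45, 4.49 and 4.39 with PBS (limma adjusted p = 0.0285). In 6 of the 7, all but the _at probe set of H2AC8, the lower group mean did not exceed the brightest Tag control, so the size of these changes is uncertain. Both group means lay below it in the called H2BC18 probe set and the _s_at probe set of H2AC8. The other H2BC6 probe sets changed by 0.24 and 0.16 log2, and those of H2BC18 by 0.12, -0.050 and -0.092, all without a call. The further probe set of H2AC20 averaged 4.44 with EPC-Exos and 4.16 with PBS, and the fourth of H3C8 averaged 4.05 with EPC-Exos and 4.33 with PBS, without a call.

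**Figure D4:**
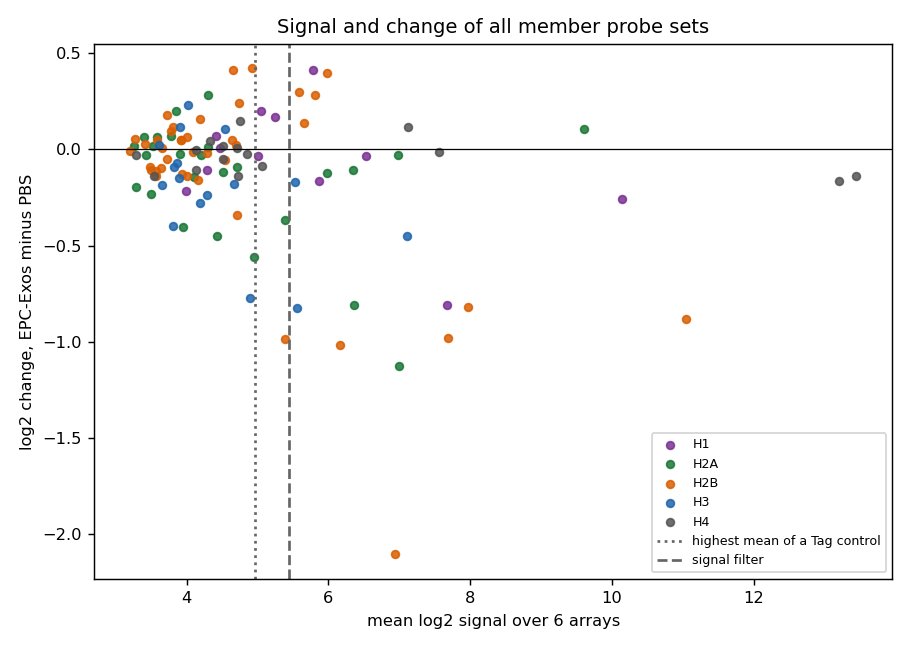
Mean log2 signal over the 6 arrays (x axis) and log2 change, EPC-Exos minus PBS (y axis), of all 110 member probe sets coloured by histone class. Most points lie left of the dotted line at the highest Tag control, and the falls beyond 1 on the log2 scale (H2BC21, H2AC11 and an H2BC5 probe set) lie right of the dashed line at the signal filter.

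Histone copies are near-identical in their coding parts, so probes can bind several genes. Of the 110 members 50 were of the _x_at or _s_at kind, whose probes can match related transcripts, and so were 14 of the 27 tested. The annotation gave 9 further probe sets several histone symbols, and these are not members. In 4 of them the signal passed the filter. The pair that names H2AC18 and H2AC19, neighbouring H2A genes of chromosome 1 that encode the same protein, fell most of these 4: the _x_at probe set had 8.34, 8.46 and 8.35 with EPC-Exos, against 9.87, 10.10 and 10.23 with PBS (-1.68 ± 0.081 SE, limma adjusted p = 4.31e-11), and the _s_at probe set changed by -1.65 ± 0.077. The tested probe set for H4C14 and H4C15 had 5.52, 6.17 and 6.15 with EPC-Exos, against 6.98, 7.15 and 7.12 with PBS (-1.13 ± 0.14, limma adjusted p = 4.6e-06), a larger fall than in any H4 member with a single symbol. A further probe set for H4C14 and H4C15 missed the filter. It averaged 4.35 with EPC-Exos and 4.22 with PBS, below the highest Tag control in both groups. The probe set for H4C12 and H4C11 averaged 9.13 ± 0.15 with EPC-Exos and 9.13 ± 0.14 with PBS (SD, n = 3) and was not called.

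Genes that make, process and use histone mRNA were described from lists, with each gene read by its probe set of highest mean signal; over 11715 genes read that way, 26.7% were called lower and 21.2% higher, with a median log2 change of -0.011. For histone mRNA synthesis and 3′ end processing, 4 of 13 tested genes were higher, 2 lower and 7 not called. LSM10 and LSM11, Sm-like proteins of the U7 particle that cuts histone pre-mRNA, were higher (0.55 ± 0.054 and 0.48 ± 0.12 SE, limma adjusted p = 3.31e-07 and 0.00409), as were the cleavage factor genes CSTF2 (0.49 ± 0.076) and CPSF2 (0.43 ± 0.072). SLBP, which binds the stem-loop, fell by 0.13 on the log2 scale (limma adjusted p = 0.0155), and HINFP, a transcription factor of H4 genes, fell by 0.32 (limma adjusted p = 0.00271). NPAT, the coactivator of histone gene transcription, averaged 8.70 with EPC-Exos and 8.92 with PBS and was not called (-0.21 ± 0.091, limma adjusted p = 0.0653). Of 6 decay genes, the exonuclease gene ERI1 (0.39 ± 0.063) and LSM1 (0.20 ± 0.070) were higher and XRN1 lower (-0.30 ± 0.076), and 3 were not called. LSM11 and CSTF2 were each called in 1 of 2 tested probe sets, and XRN1 in 2 of 3.

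DNA replication genes were lower in 15 of 25 tested members and higher in 1, with a median log2 change of -0.22. The higher one, the primase subunit gene PRIM1, was at the threshold (0.15 ± 0.060 SE, limma adjusted p = 0.05) and was not called without the filter (limma adjusted p = 0.0684). Probe sets of the same replication gene did not always share a call. MCM4 was lower in 2 of 5 tested probe sets, CDT1 in 1 of 3, CDC6 in 1 of 2, and MCM7 and RRM1 in 3 of 4 each. CCNA2, counted as not called, was higher in 1 of 2. MCM6, a subunit of the replicative helicase (-0.67 ± 0.053 SE), the transcription factor gene E2F2 (-0.54 ± 0.098), CCNE2, cyclin E2 (-0.53 ± 0.069), and the sliding clamp gene PCNA (-0.47 ± 0.036) fell most, with limma adjusted p between 1.64e-08 and 0.000236. Of 20 histone chaperones and assembly factors, 4 were lower, 2 higher and 14 not called. These counts read 1 probe set per gene. Among the 14, ANP32E was higher in 4 of its 5 tested probe sets, SSRP1 higher in 2 of 3 and NASP lower in 1 of 2. ASF1B, the H3-H4 chaperone of dividing cells, fell (-0.74 ± 0.075), as did RBBP4 (-0.36 ± 0.048), RBBP7 (-0.34 ± 0.068), which bind histones in several complexes, and NAP1L1, an H2A-H2B chaperone (-0.14 ± 0.047), while IPO4, an importin for histones (0.63 ± 0.082), and the H3.3 chaperone DAXX (0.30 ± 0.057) were higher. NAP1L1 was called lower in 4 of its 10 tested probe sets. NAP1L1, DAXX, HINFP and PRIM1 were picked after their values were seen.

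Among listed histone variants that lie outside the clusters, most of which have polyadenylated mRNAs, 2 of 8 tested were lower, 0 higher and 6 not called. Their median log2 change was -0.015. H2AX, the variant marked at DNA breaks, fell by 0.44 (limma adjusted p = 4.96e-08) and H2AZ2 by 0.29 (limma adjusted p = 1.52e-05). The difference between these variants and the clustered genes was not tested.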

How the data were processed

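The deposited table holds log2 signals of 49395 probe sets on 6 arrays; MAS5 is named without a role per the submitters' processing notes, RNA was labelled with a 3′ IVT kit per the labels' protocols, and how the authors scaled the arrays is not given in the sources used here. The values were used as deposited. After 102 control probe sets were left out, 44988 had 1 gene symbol, 1832 several and 2473 none in the platform annotation. Of 17 Tag controls, the highest mean signal, 4.97, served as a guide to background; the number of arrays limits the precision. The comparison used limma 3.58.1 under R 4.3.3, with group as the only term in lmFit and a variance trend in eBayes, two-sided, 3 arrays per group, 1 row per probe set. Changes are EPC-Exos minus PBS. The fit was tested on simulated data. Batches are not given in the labels, so a batch that follows the groups cannot be told apart from treatment.

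The members, gene lists and tests were chosen with earlier results of these data known. Every member above the filter is named; of those below it, members called without the filter or sharing a gene with a tested one; from each other list up to 4 called genes by size, with SLBP and NPAT. POU2F1 was not analysed here. Also tried were median, quantile and cyclic loess scaling, offsets of 16 and 64, other filters, 1 probe set per gene, probe sets without _x_at and _s_at, other variance models, a replicate block, a test against a fold of 1.2, the study's threshold and leaving out each array.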

Additional observations from a re-analysis of the deposited data

How the results depend on the processing

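The 13 histone probe sets called lower by limma stayed at 13 under quantile, cyclic loess and median scaling, offsets of 16 and 64 and array weights. Leaving out each array gave 13 to 13 lower and 1 to 3 higher histone probe sets (1 without EPC-Exos replicate 2 or PBS replicate 2), 2 to 2 lower for H1, H2A, H3 and H4, 5 to 5 for H2B, and over all probe sets 5685 to 6970 lower and 5355 to 6567 higher. With the replicate block, 13 histone probe sets were lower and 3 higher, and over all 7552 lower and 7094 higher. Deviations of same-numbered arrays correlated at 0.207, 0.196 and 0.085, and those of differently numbered arrays at -0.197 to 0.014. Each array thus correlated best with its own number. The main fit left the number out because the labels do not say that it marks a shared culture or day. Whether same-numbered arrays share such a factor was not tested. Without the filter 18 of 110 histone probe sets were lower, 5 of them H2A, and 4 were higher. Over all 49293 probe sets 7275 were lower and 6711 higher. The median log2 change was then -0.034 for the members and 0.018 over all, so the lean toward falls was far smaller than among members above the filter. With the filter at the 60th percentile 7 histone probe sets were lower and 0 higher, with 0 lower for H2A, 3 for H2B and 0 for H3, fewer members being tested. With 1 probe set per gene 9 of 18 histone probe sets were lower and 3 higher, and 3203 of 11715 were lower and 2545 higher over all. By class 3 were lower for H2B, 1 for H3 and 1 for H4. Without _x_at and _s_at probe sets 4321 of 19302 were lower and 4300 higher over all. Of 13 histone probe sets then tested 5 were lower and 2 higher, and by class 0 were lower for H1, 1 for H2A, 0 for H3 and 0 for H4. All H1, H3 and H4 probe sets called lower in the main fit were of the _x_at or _s_at kind. Without a variance trend 1 H4 probe set was lower, H4C3 losing its call in the _x_at probe set. In the test against a fold of 1.2, 2202 were lower and 1856 higher over all, 0 histone probe sets were higher, and 1 was lower for H1, 1 for H3 and 0 for H4. At the study's threshold 1553 were lower and 1199 higher, with the same histone counts of 0 higher and 1, 1 and 0 lower for H1, H3 and H4. H2BC15 was called higher under quantile (limma adjusted p = 0.0308), cyclic loess (0.0456) and median scaling (0.0281), with 1 probe set per gene (0.0443), without a variance trend (0.0313) and without EPC-Exos replicate 3 (0.0322). The H2BC9 _x_at call was lost without the filter (limma adjusted p = 0.0588). Of the called changes, 0 turned their sign, while 3 uncalled ones near 0 did: H4C12 _x_at (-0.013) was 0.016 under quantile, 0.0012 under cyclic loess and 0.011 under median scaling, and 0.020 and 0.011 without EPC-Exos replicate 1 or PBS replicate 2; H2AC25 (-0.027) was 0.050 without EPC-Exos replicate 1; and H1-10 _at (-0.032) was 0.013 and 0.079 without EPC-Exos replicate 3 or PBS replicate 2. The cause of these differences was not tested except where fewer features were tested. With 3 arrays per group and most members near background, small changes of dim probe sets could not be resolved.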
